A study of Danio rerio with 32 samples.

Results

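Livers of nrf2 knockout (KO) zebrafish larvae kept in dimethyl sulfoxide (DMSO) were compared between 24 h and 12 h. The comparison used 8 of the 32 libraries of the series, 4 at each time, chosen by their labels for genotype, treatment and time. All Ensembl genes of the count table entered. The series crossed genotype (WT or nrf2KO), treatment (APAP, the analgesic acetaminophen, or its DMSO control) and time (12 h or 24 h), with 4 libraries in each of 8 groups. Each library was made from 20 pooled livers. The 8 libraries share the knockout and the DMSO exposure and differ in the time of collection. The labels do not give the larval age, the clock time of collection, the kind of mutation or which zebrafish copy of nrf2 carries it. Time of exposure, age and time of day therefore cannot be told apart. The sample numbers in the column names place all 12 h libraries of the series before all 24 h libraries. What these numbers stand for is not given, so an order of handling cannot be told apart from time either.

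Nrf2 is a transcription factor that binds the promoters of antioxidant and detoxification genes and is held back by Keap1. The liver of a zebrafish larva is still growing, so part of its cells divide, while its hepatocytes already secrete plasma proteins and break down amino acids. Like other zebrafish tissues it carries a circadian clock, in which the activators Clock and Bmal drive the genes of their own repressors, the Per and Cry proteins. The clock is set by light, and in zebrafish cells light acts on it directly.

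Total counts in genes were between 4693377 and 6298523 in the 8 libraries. Genes with at least 1 count numbered 9703 in 12 h replicate 3, between 13003 and 14422 in the other 12 h libraries, and between 11664 and 12212 at 24 h. Low genes listed at 0 in 12 h replicate 3 are to be read with this in mind. Exocrine pancreas markers took 8.08% of the counts of the same library against 1.86% to 2.74% in the other 12 h libraries. The scaling factors of the trimmed mean of M values (TMM) were 1.13 to 1.596 at 12 h and 0.703 to 0.899 at 24 h, so they do not overlap. Values per library below are CPM, counts relative to library size after this scaling, in the order of replicates 1 to 4. Log2 fold changes are 24 h over 12 h, with their standard error (SE) and n = 4 per time. Adjusted p are from edgeR's quasi-likelihood test. The labels do not say that the libraries of a group come from separate clutches, so p-values measure the spread between these pools.

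A gene copy of nrf2 was read in both groups, and the labels do not say whether it is the mutated one. The transcript named NFE2L2 (ENSDARG00000042824) stood at 43.4, 37.1, 40.4 and 40.6 CPM at 12 h and at 40.1, 31.5, 54.4 and 41.9 CPM at 24 h. In WT DMSO livers it ranged from 29.8 to 56.7 CPM at 12 h and from 41.5 to 53.1 CPM at 24 h, which overlaps the KO values. The level of this RNA does not separate the genotypes, and the labels do not say whether the mutation would lower it. Its log2 fold change over time was 0.05 ± 0.38 (adjusted p = 0.98).

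Between 12 h and 24 h, 18 of 67 genes of mitosis fell. Genes that rose were 34 of 78 for cytosolic ribosomal proteins, 13 of 48 for plasma proteins and 9 of 73 for amino acid breakdown. Of 17 clock repressors 4 rose and 2 fell. Of 11384 genes tested, 199 were higher at 24 h, which is 1.75%, and 88 were lower, which is 0.773%. Together they made 287 genes or 2.52%, and 1417 genes had an unadjusted p under 0.05. The median log2 fold change over all tested genes was -0.08. The groups of 4 did not overlap in 1663 genes (14.6%), among them 280 of the 287 called genes. With counts scaled by library totals alone, the median of all genes moved to -0.74 and the split to 62 higher and 334 lower. Under scaling by relative log expression the median was -0.27 and the split 130 higher and 127 lower. The medians of gene lists below are to be read against the -0.08 of all genes. Under total counts alone, medians are given with their distance from the median of all genes. A change of scaling moves all genes nearly alike, so this distance cannot show whether a list result depends on the scaling. The count of calls was 125 without 12 h replicate 2, 136 without 24 h replicate 3, 157 without 24 h replicate 4, 158 without 12 h replicate 1 and 189 without 24 h replicate 1.

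**Figure D1:**
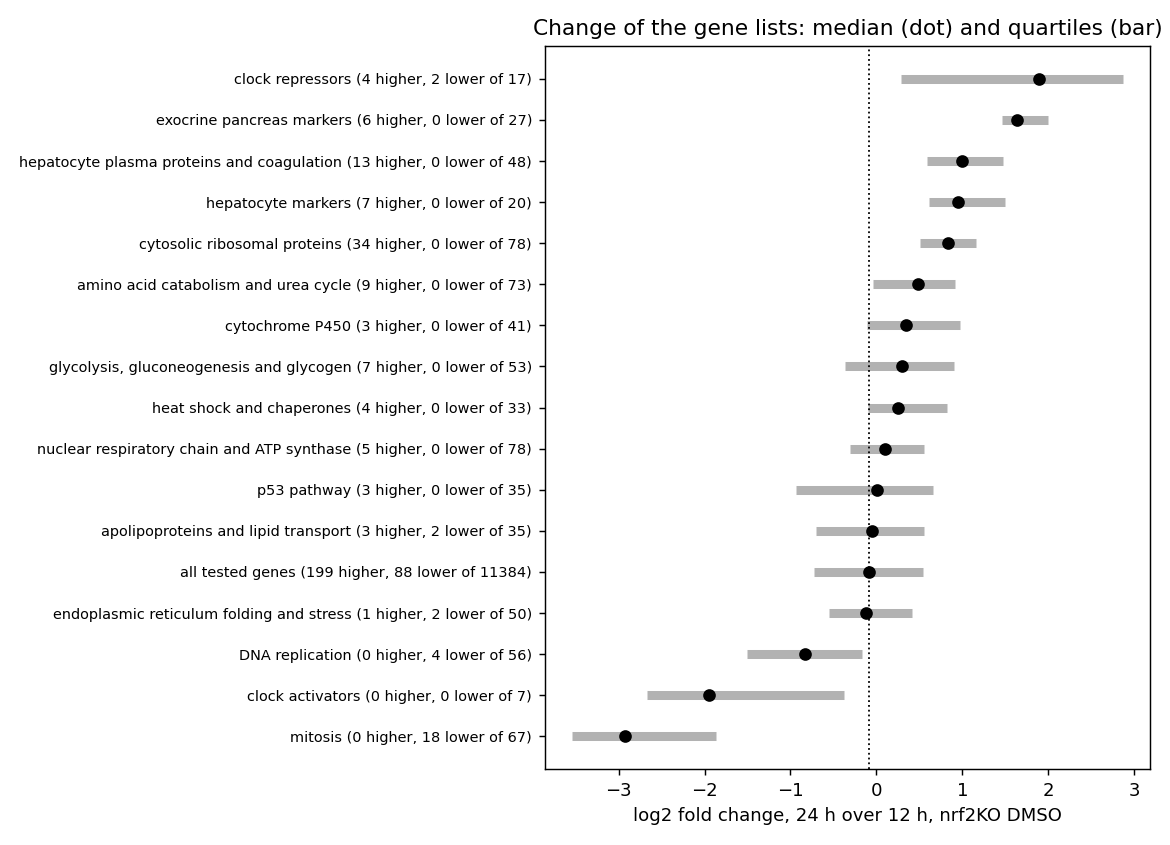
Log2 fold changes of the pathway lists with at least 3 called genes, of the clock activators and of 2 marker lists between 24 h and 12 h in KO DMSO livers, with the median as a dot, the quartiles as a bar and the median of all tested genes as a dotted line. Among the lists drawn, mitosis lies lowest with a median of -2.93 and the clock repressors lie highest with 1.89.

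Among the clock repressors, 4 of 17 tested members were higher at 24 h and 2 were lower, with a median log2 fold change of 1.89. PER3 (ENSDARG00000010519), a period protein of the repressor complex, stood at 1.42, 1.19, 0 and 0 CPM at 12 h and at 13.7, 19, 29.4 and 29.5 CPM at 24 h. Every 24 h library lay above every 12 h library, and the log2 fold change was 5.02 ± 0.85 (adjusted p = 0.000607). BHLHE41 (ENSDARG00000041691), a helix-loop-helix repressor of the same loop, had 2.2, 3.46, 0.178 and 0.574 CPM at 12 h and 16.3, 13.4, 25.6 and 13.4 CPM at 24 h. The groups did not overlap, with a log2 fold change of 3.37 ± 0.85 (adjusted p = 0.0198). PER2 (ENSDARG00000034503), whose zebrafish gene is known to be induced by light, rose by 2.58 ± 0.69 (adjusted p = 0.0309). One of 2 genes with the symbol CRY1 (ENSDARG00000045768) rose by 1.69 ± 0.42 (adjusted p = 0.0174). The other (ENSDARG00000011583) had 2.44 ± 1.2 and did not pass (adjusted p = 0.398).

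The cryptochromes cry3a and cry3b moved the other way. The gene cry3a (ENSDARG00000069074) stood at 76.0, 72.4, 156 and 131 CPM at 12 h and at 12.6, 7.59, 15.8 and 21.6 CPM at 24 h. All 24 h libraries were lower, and the log2 fold change was -2.92 ± 0.61 (adjusted p = 0.00509). For cry3b (ENSDARG00000091131) it was -4.50 ± 1.18 (adjusted p = 0.028). Without single libraries, between 1 and 4 of the clock repressors were called higher and 1 or 2 lower. The higher count was 1 without 12 h or 24 h replicate 3 and 2 without 12 h replicate 2 or 24 h replicate 4. The lower count was 1 without 24 h replicate 1, 2 or 4. With total counts alone 1 was higher and 2 were lower. The median was then 1.16, which is 1.90 above that of all genes, against 1.97 with TMM.

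The clock activators had lower levels at 24 h without passing the test. All 7 tested members had a negative log2 fold change, with a median of -1.95, and 0 were called. One gene named BMAL1 (ENSDARG00000006791), the partner of Clock, had 5.17, 3.22, 3.92 and 2.44 CPM at 12 h and 0, 0, 0 and 1.37 CPM at 24 h. The groups did not overlap, but with few counts the log2 fold change was -3.42 ± 1.58 (adjusted p = 0.348). Both genes named PER1 were higher in the mean at 24 h without passing. The first (ENSDARG00000012499) had 2.87 ± 0.86 (adjusted p = 0.0642). The second (ENSDARG00000056885) had 1 count in all at 12 h and 34 at 24 h, a ratio of 57.6 with a 95% counting interval of 9.67 to 2340.

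Clock outputs moved in both directions. tefa (ENSDARG00000039117), a PAR bZIP activator, had 7.89, 15.1, 3.03 and 4.16 CPM at 12 h and 47.3, 43.1, 62.3 and 51.4 CPM at 24 h. The 24 h libraries lay close together and above all 12 h libraries, with a log2 fold change of 2.74 ± 0.61 (adjusted p = 0.00724). nfil3-5 (ENSDARG00000094965), of the Nfil3 family that competes for the same sites, fell by 4.05 ± 1.12 on the log2 scale (adjusted p = 0.038). The other 5 of 7 tested outputs did not pass. Of the 9 tested light-induced and DNA repair genes, 2 rose and 0 fell. They were lonrf1 (1.94 ± 0.51, adjusted p = 0.0294) and cry5, the 6-4 photolyase (2.98 ± 0.85, adjusted p = 0.0459). The cry5 groups overlapped, since 24 h replicate 1 stood at 1.95 CPM and the other 24 h libraries between 18.8 and 28.7 CPM.

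**Figure D2:**
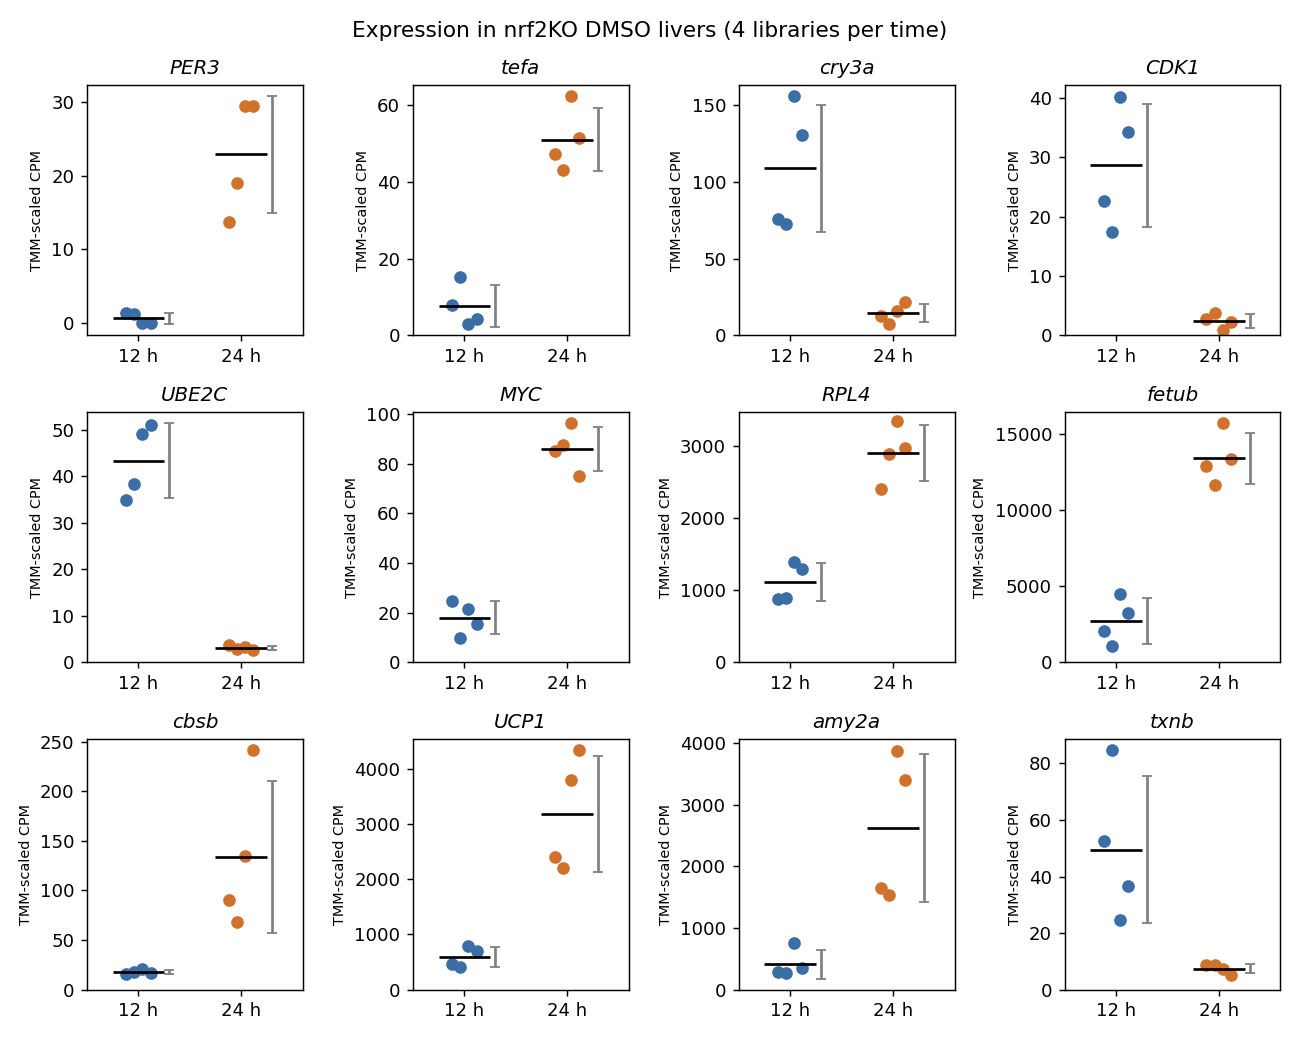
TMM-scaled CPM of 12 genes in each KO DMSO library, with 12 h in blue and 24 h in orange, the mean as a black line and the SD as a grey bar (n = 4). In each panel the 12 h and 24 h libraries do not overlap, as for CDK1 with 17.4 to 40.2 CPM at 12 h and 0.816 to 3.79 CPM at 24 h.

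Genes of mitosis fell. Of 67 tested members 18 were lower and 0 higher, all 67 had a negative log2 fold change, and the median was -2.93. CDK1 (ENSDARG00000087554), the kinase that drives entry into mitosis, stood at 22.6, 17.4, 40.2 and 34.2 CPM at 12 h and at 2.82, 3.79, 0.816 and 2.19 CPM at 24 h. All 24 h libraries were below all 12 h libraries, and the log2 fold change was -3.54 ± 0.60 (adjusted p = 0.000607). UBE2C (ENSDARG00000114670), a ubiquitin-conjugating enzyme of the anaphase-promoting complex, had 34.9, 38.3, 49.1 and 51.1 CPM at 12 h and 3.69, 3.00, 3.26 and 2.74 CPM at 24 h. Its libraries were close together at 24 h, and it fell by 3.76 ± 0.62 on the log2 scale (adjusted p = 0.000543).

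The other called members cover the steps of division. TPX2 (ENSDARG00000078654), a spindle assembly factor, fell by 4.35 ± 0.71 (adjusted p = 0.000543). plk1, a mitotic kinase, fell by 3.55 ± 0.68 (adjusted p = 0.00239), and CCNB1, the cyclin partner of CDK1, by 3.41 ± 0.90 (adjusted p = 0.0294). cdca8 (-4.08 ± 0.91) and BIRC5 (-3.43 ± 0.92), which sit together in the chromosomal passenger complex, both passed, with adjusted p of 0.00695 and 0.0307. TOP2A, which untangles chromosomes, fell by 2.80 ± 0.64 (adjusted p = 0.00813), and mki67, a widely used marker of cycling cells, by 2.81 ± 0.68 (adjusted p = 0.0137). CENPF and hmmr had 153 and 174 counts at 12 h and 0 at 24 h. Against a floor of 3 counts over the group they were at least 30.1-fold and 34.2-fold lower. kif11, a spindle motor, had 140 counts at 12 h and 1 at 24 h, a ratio of 0.0121 with a 95% counting interval of 0.000304 to 0.0686.

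Outside the list, cdca3 (ENSDARG00000070656) had -4.56 ± 0.93 (adjusted p = 0.00437). PBK, a mitotic kinase, fell by 3.58 ± 0.76 (adjusted p = 0.00573). KPNA2, an importin, fell by 3.04 ± 0.57 (adjusted p = 0.00194). As a share of all counts in genes, which no scaling factor touches, the mitosis list took 0.137% to 0.181% at 12 h and 0.0343% to 0.0584% at 24 h. The shares did not overlap. In a bulk library, fewer dividing cells and less of these RNAs per cell cannot be told apart. Leaving out single libraries left 6 to 16 of the members called. There were 6 without 24 h replicate 3, 7 without 24 h replicate 4, 10 without 24 h replicate 1 or replicate 2, and 11 without 12 h replicate 1 or replicate 2.

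The DNA replication list had a smaller shift, with 4 of 56 tested members lower, 0 higher and a median of -0.83. RRM1 (ENSDARG00000014017), the large subunit of ribonucleotide reductase, had 27.5, 22.7, 23 and 18 CPM at 12 h and 4.55, 4.19, 1.63 and 9.85 CPM at 24 h. The groups did not overlap, although 24 h replicate 4 stood higher than the rest, and the log2 fold change was -2.17 ± 0.55 (adjusted p = 0.0216). One RRM2 gene (ENSDARG00000078069), of the small subunit, fell by 3.36 ± 0.79 (adjusted p = 0.0104). PCNA, the sliding clamp of DNA polymerase, fell by 1.49 ± 0.35 (adjusted p = 0.0103). RPA3, of the complex that coats single-stranded DNA, fell by 2.32 ± 0.62 (adjusted p = 0.03). MCM5, of the replicative helicase, had -0.62 ± 0.89 (adjusted p = 0.897). Without 24 h replicate 3, 0 of the list were called. Without 24 h replicate 1 there was 1, and without 12 h replicate 1, 12 h replicate 2 or 24 h replicate 4 there were 2.

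Genes of proteins that bind DNA or nucleosomes and of histone variants were among those that fell and are in none of the lists. They were picked after their values were seen. HMGN2 (ENSDARG00000099572), a nucleosome-binding protein, had 134, 122, 127 and 147 CPM at 12 h and 23.6, 29, 16.9 and 19.1 CPM at 24 h. Both groups were tight and far apart, with a log2 fold change of -2.58 ± 0.55 (adjusted p = 0.00573). hmgn1a (-1.74 ± 0.29), hmgb2b (-2.07 ± 0.46) and the histone variants h2az2b (-1.69 ± 0.37) and h3f3a (-1.64 ± 0.27) fell too, with adjusted p of 0.000583, 0.0065, 0.00668 and 0.000543. LSM5, SNRPG and LSM8, which bind small nuclear RNAs of splicing, were picked likewise. LSM5 (ENSDARG00000071573) fell by 3.49 ± 0.75 (adjusted p = 0.00589), SNRPG by 2.13 ± 0.52 (adjusted p = 0.0146) and LSM8 by 1.92 ± 0.54 (adjusted p = 0.0425).

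Genes for cytosolic ribosomal proteins rose. Of 78 tested members 34 were higher and 0 lower, 77 had a positive log2 fold change, and the median was 0.83. RPL4 (ENSDARG00000041182), of the large subunit, stood at 883, 892, 1395 and 1287 CPM at 12 h and at 2399, 2889, 3340 and 2962 CPM at 24 h. All 24 h libraries were higher, and the log2 fold change was 1.38 ± 0.26 (adjusted p = 0.00239). RPS6, of the small subunit, rose by 1.35 ± 0.26 (adjusted p = 0.00239), RPL13A by 1.42 ± 0.28 (adjusted p = 0.00265) and RPLP1, of the stalk, by 1.52 ± 0.31 (adjusted p = 0.00376). As a share of all counts in genes the list took 20.3% to 22.2% at 12 h and 23.7% to 24.2% at 24 h. With total counts alone 11 members were higher and 1 lower. The median was then 0.16, which is 0.91 above that of all genes. This is the distance found with TMM too, and a change of scaling hardly moves it. Higher members numbered 17 without 12 h replicate 2 and 21 without 12 h replicate 1. Ribosomal protein genes have near-identical copies, and reads that match several of them may have been lost or misassigned in the counting.

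Beside the ribosomal proteins, the elongation factor eef2b (ENSDARG00000100371) rose by 1.97 ± 0.34 (adjusted p = 0.000816). Of the ribosome biogenesis list 1 of 69 tested members was higher and 0 were lower, a share near the 1.75% of all tested genes that were higher. The median of that list was 0.32, and the 1 call is no result about the list. The called member was DDX21, a helicase of the nucleolus, with 64.8, 64.2, 165 and 114 CPM at 12 h and 367, 304, 534 and 390 CPM at 24 h. The groups did not overlap, and the log2 fold change was 1.97 ± 0.37 (adjusted p = 0.00226). One MYC gene (ENSDARG00000007241), a transcription factor of growth, had 24.8, 10, 21.7 and 15.5 CPM at 12 h and 85.2, 87.5, 96.5 and 75 CPM at 24 h. It was higher in every 24 h library, by 2.26 ± 0.48 (adjusted p = 0.00573).

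**Figure D3:**
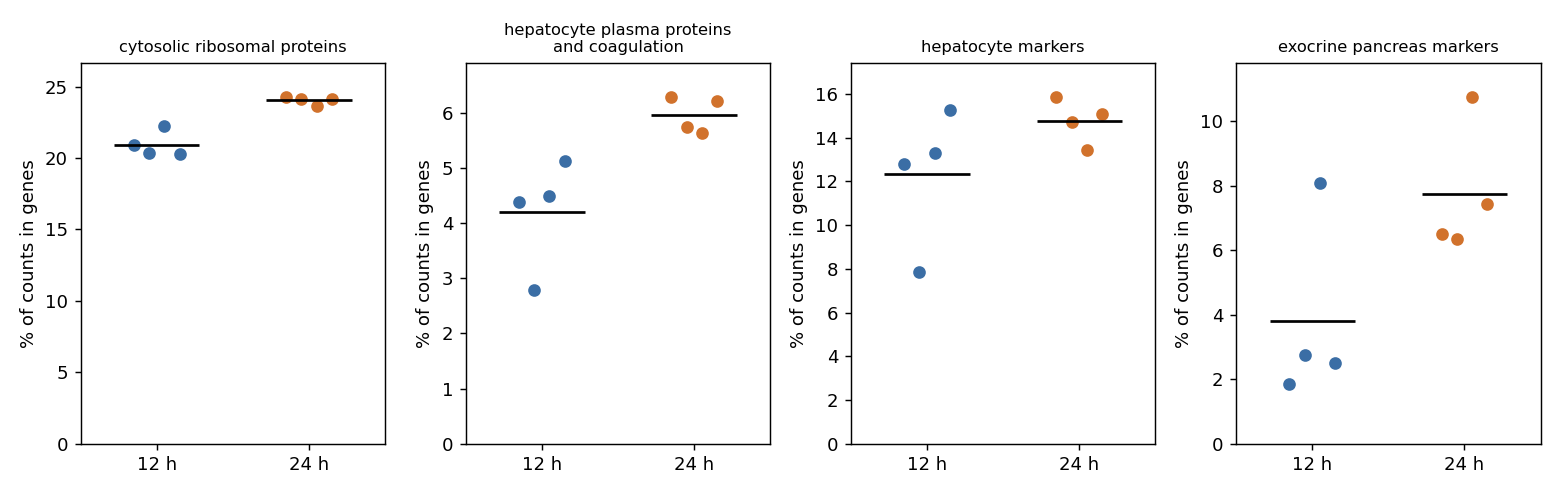
Share of all counts in genes taken by 4 gene lists in each KO DMSO library (points, with the mean as a line), before any scaling between libraries. Ribosomal and plasma protein shares are higher in every 24 h library, while hepatocyte and exocrine pancreas marker shares overlap between the times.

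Secreted proteins of the hepatocyte rose in part. Of 48 tested plasma protein and coagulation genes 13 were higher and 0 lower, with a median of 1.00. fetub (ENSDARG00000053973), a fetuin, had 2050, 1062, 4514 and 3227 CPM at 12 h and 12874, 11612, 15677 and 13302 CPM at 24 h. The 24 h libraries were all higher, with a log2 fold change of 2.30 ± 0.44 (adjusted p = 0.00226). GC, the vitamin D binding protein, rose by 1.69 ± 0.35 (adjusted p = 0.00486) and the protease inhibitor precursor ambp by 1.59 ± 0.33 (adjusted p = 0.00463). ahsg1, another fetuin, rose by 3.34 ± 0.72 (adjusted p = 0.00588). Of the fibrinogen chains fga rose by 1.29 ± 0.30 (adjusted p = 0.0109) and FGB by 1.39 ± 0.33 (adjusted p = 0.0122). The list took 2.79% to 5.12% of counts at 12 h and 5.63% to 6.28% at 24 h. In 12 h replicate 2 the listed genes were lowest, and without it 4 members were called. Without 12 h replicate 1 or 24 h replicate 4 there were 7, and without 24 h replicate 3 there were 8. With total counts alone 4 were higher and 1 lower. The median was then 0.39, which is 1.13 above that of all genes, against 1.08 with TMM.

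Hepatocyte markers, which share some of these genes, moved with them. Of 20 tested markers 7 were higher and 0 lower, with a median of 0.95, and they took 7.86% to 15.3% of counts at 12 h and 13.4% to 15.8% at 24 h. fabp10a (ENSDARG00000038439), the liver fatty acid binding protein, had 13586, 4584, 10285 and 13015 CPM at 12 h and 32866, 20338, 35847 and 34312 CPM at 24 h. The lowest 24 h library exceeded the highest 12 h library, and the log2 fold change was 1.57 ± 0.34 (adjusted p = 0.00589). Of the markers, 3 were called without 12 h replicate 2. With total counts alone 3 were higher and 0 lower, with a median of 0.33. The part that the share of hepatocytes has in the rise of plasma proteins was not tested.

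Exocrine pancreas markers were higher too, with 6 of 27 tested members called, 0 lower and a median of 1.64. amy2a (ENSDARG00000013856), the pancreatic amylase, had 279, 263, 762 and 345 CPM at 12 h and 1650, 1527, 3874 and 3406 CPM at 24 h. The groups did not overlap, with a log2 fold change of 2.67 ± 0.55 (adjusted p = 0.00468). The elastases ela2 (2.23 ± 0.50) and ela3l (2.11 ± 0.49) rose with adjusted p of 0.00743 and 0.0103. The list took 1.86% to 8.08% of counts at 12 h and 6.34% to 10.7% at 24 h, which overlap through 12 h replicate 3. Without that library 16 members were called. Without 12 h replicate 2 there was 1 and without 12 h replicate 1 or 24 h replicate 3 there were 2. Under relative log expression 3 were higher and 0 lower. The same split was found with total counts alone, where the median was 1.01. The pancreas lies beside the liver, and its part in the results on other genes was not tested. With pancreas genes left out of the library size, 272 genes were called in all.

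Among the other markers, epidermis had 2 of 24 higher and 1 lower. krt91 rose by 1.96 ± 0.40 (adjusted p = 0.00449) and krt8 by 1.12 ± 0.27 (adjusted p = 0.013), while icn fell by 1.66 ± 0.43 (adjusted p = 0.022). The lower call was lost without 12 h replicate 1 or 4 or any single 24 h library, 1 was higher without 12 h replicate 1 or 2 or 24 h replicate 3 or 4, and with total counts alone 0 were higher. The marker lists of intestine, red blood cells, endothelium, stellate and biliary cells, neutrophils, macrophages and the endocrine pancreas had 0 called members. Skeletal muscle, kidney and neural markers had 1 each.

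Amino acid breakdown rose in part, with 9 of 73 tested genes higher, 0 lower and a median of 0.49. cbsb (ENSDARG00000010946), a cystathionine beta-synthase of sulfur amino acid metabolism, had 15.6, 17.8, 21.0 and 16.4 CPM at 12 h and 90, 67.7, 135 and 241 CPM at 24 h. The 12 h libraries lay close together and the 24 h libraries spread widely above them, with a log2 fold change of 2.91 ± 0.49 (adjusted p = 0.000583). The enzymes of tyrosine breakdown TAT (2.93 ± 0.67) and hpda (3.18 ± 0.72) rose with adjusted p of 0.00826 and 0.00755. The tryptophan dioxygenases TDO2 (1.97 ± 0.38) and tdo2b (2.62 ± 0.61) rose with adjusted p of 0.00265 and 0.0103. With total counts alone 5 were higher and 2 lower. The median then turned to -0.16, which is 0.58 above that of all genes, against 0.57 with TMM. The list had 3 called members without 12 h replicate 2. GAMT (ENSDARG00000070844), which makes creatine, is in none of the lists and had the smallest adjusted p. It stood at 1144, 1014, 1386 and 1284 CPM at 12 h and at 4740, 5793, 8010 and 7149 CPM at 24 h. The groups were far apart, by 2.41 ± 0.33 (adjusted p = 9.74e-05).

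Of 53 tested genes of glucose metabolism 7 were higher and 0 lower, with a median of 0.30. PKLR (ENSDARG00000042010), the liver pyruvate kinase, had 619, 472, 2592 and 1566 CPM at 12 h and 6253, 5404, 6271 and 6990 CPM at 24 h. The 12 h libraries varied several fold among themselves and stayed below all 24 h libraries, with a log2 fold change of 2.25 ± 0.46 (adjusted p = 0.00421). GAPDH rose by 1.24 ± 0.31 (adjusted p = 0.0161) and ENO3 by 1.19 ± 0.28 (adjusted p = 0.0103). Both genes named PPP1R3C, a glycogen-targeting phosphatase subunit, rose, by 1.86 ± 0.47 (ENSDARG00000014554, adjusted p = 0.0192) and by 2.70 ± 0.73 (ENSDARG00000071005, adjusted p = 0.0336). PCK1, the gluconeogenic enzyme, had 0.90 ± 0.39 (adjusted p = 0.291). Without 12 h replicate 1 or 2, 1 member of the list was called, without 24 h replicate 4 there were 2, without 24 h replicate 3 there were 3, and without 12 h replicate 4 or 24 h replicate 1 there were 4. Under total counts alone 1 member was called. The median then turned to -0.33, which is 0.41 above that of all genes, against 0.38 with TMM.

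UCP1 (ENSDARG00000023151), a mitochondrial carrier, had 458, 415, 785 and 705 CPM at 12 h and 2408, 2198, 3802 and 4334 CPM at 24 h. All 24 h libraries were higher, by 2.43 ± 0.36 (adjusted p = 0.000143). igfbp1b, a binding protein of insulin-like growth factors, rose by 2.39 ± 0.53 (adjusted p = 0.00634), though its groups overlapped. In lipid transport 3 of 35 genes were higher and 2 lower. LPL, the lipoprotein lipase, rose by 1.91 ± 0.37 (adjusted p = 0.00265). apoc4 fell by 4.40 ± 1.19 (adjusted p = 0.0326). The lower count of this list was 0 without 12 h replicate 2, 24 h replicate 1 or 24 h replicate 3, and 1 without 12 h replicate 1 or 24 h replicate 4. Its split was 2 higher and 4 lower with total counts alone.

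Of 41 tested genes in the list of cytochrome P450 enzymes and their reductase, 3 were higher and 0 lower, with a median of 0.35. POR (ENSDARG00000059035), the reductase that supplies the P450 enzymes with electrons, had 142, 139, 110 and 124 CPM at 12 h and 455, 446, 436 and 503 CPM at 24 h. Both groups were tight, and the log2 fold change was 1.84 ± 0.30 (adjusted p = 0.000543). CYP24A1, which degrades vitamin D, rose by 2.51 ± 0.56 (adjusted p = 0.00727) with overlapping groups. Of the nuclear respiratory chain list 5 of 78 were higher and 0 lower, and the median was 0.10. The gene ndufa4b (ENSDARG00000056108) is not among those 78 and was called lower. It had 155 CPM in 12 h replicate 2 and 37.1 to 48.8 CPM in the other 12 h libraries. At 24 h it had 20.0 CPM in replicate 2 and 1.36 to 2.6 CPM in the others. ATP5F1B, of the ATP synthase, rose by 1.09 ± 0.26 (adjusted p = 0.0139). Under total counts alone 1 of these 78 was higher and 15 were lower. Leaving out single libraries left 1 or 2 of the 5 called, except without 12 h replicate 3, where 5 were. Of the P450 list 1 gene was called without 12 h replicate 2. With total counts alone 2 genes of the P450 list were higher and 0 lower, with a median of -0.34.

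The chaperone list had 4 of 33 members higher and 0 lower, with a median of 0.25. HSF2, a heat shock transcription factor, rose by 2.74 ± 0.60 (adjusted p = 0.00625), HSP90AB1 by 1.3 ± 0.29 (adjusted p = 0.00755) and CCT2, of the chaperonin, by 1.38 ± 0.34 (adjusted p = 0.0173). Under total counts alone 0 of the list were called. The median then turned to -0.4, which is 0.34 above that of all genes, against 0.33 with TMM. Without 12 h replicate 1, 12 h replicate 2 or 24 h replicate 3, 2 were called. In the endoplasmic reticulum list XBP1, a regulator of protein folding, rose by 1.06 ± 0.24 (adjusted p = 0.00796). SSR4, of the complex beside the translocon, fell by 1.1 ± 0.26 (adjusted p = 0.0118). The lower count of that list, 2, was 0 without 12 h replicate 1, 24 h replicate 2 or 24 h replicate 3, and 1 without 24 h replicate 1 or 4. With total counts alone 0 of the 50 genes in that list were higher and 7 lower. Of the p53 list 3 of 35 were higher and 0 lower, with a median of 0.01. With total counts alone 2 of the p53 list were higher and 1 lower. Without 12 h replicate 1 or 2 or 24 h replicate 3 or 4, 2 were higher. GADD45B (ENSDARG00000027744), induced by stress, had 3.88, 7.39, 2.85 and 3.88 CPM at 12 h and 22.8, 25.6, 33.2 and 24.9 CPM at 24 h. Its groups did not overlap, with a log2 fold change of 2.55 ± 0.47 (adjusted p = 0.00174). GADD45G rose by 2.59 ± 0.47 (adjusted p = 0.00165).

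Each of the following pathways had fewer than 3 called members. Over all tested genes 1.75% were higher and 0.773% lower. Fatty acid oxidation had 2 of 44 higher, fatty acid and triglyceride synthesis 2 of 36, glucocorticoid-responsive genes 2 of 21, stress transcription factors 2 of 33 and complement 1 of 26, each with 0 lower. Cholesterol synthesis had 1 of 22 lower and 0 higher. G1 regulators and cell cycle inhibitors had 1 of 22 higher and 0 lower, though 17 had a negative log2 fold change and the median was -0.53. No member was called among 44 proteasome subunits, 33 genes of tRNA synthetases and amino acid stress, 15 of bile acid synthesis, 38 of conjugation, 26 of the acute phase, 62 of lysosomes and autophagy and 4 vitellogenin and estrogen response genes.

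Of 37 tested Nrf2 targets 0 were higher and 2 lower, and the median was -0.15. prdx1 (ENSDARG00000058734), a peroxiredoxin, had 65.4, 70.5, 22.3 and 32.3 CPM at 12 h and 9.11, 17.2, 18.5 and 7.93 CPM at 24 h. The groups did not overlap, although 12 h replicate 3 lay near the upper 24 h libraries, and the log2 fold change was -1.85 ± 0.37 (adjusted p = 0.00346). The gene with the symbol PRDX1 (ENSDARG00000025350) is another one and had 0.74 ± 0.28 (adjusted p = 0.181). gstp1.2, a glutathione transferase, fell by 1.42 ± 0.35 (adjusted p = 0.0153). The thioredoxin gene txnb (ENSDARG00000044125) is in none of the lists and stood at 52.5, 84.6, 24.6 and 36.5 CPM at 12 h and at 8.68, 8.59, 7.34 and 5.20 CPM at 24 h. Its groups did not overlap, and it fell by 2.73 ± 0.50 on the log2 scale (adjusted p = 0.00165). keap1a, a gene of the Nrf2 inhibitor Keap1, had 1.55 ± 0.52 (adjusted p = 0.113). The gene with the symbol KEAP1 (ENSDARG00000074634) is another one and is not reported here. The second Nrf2 gene, nfe2l2b, had -0.77 ± 1.03 (adjusted p = 0.888).

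The same change over time was measured in WT DMSO livers, which share no library with the KO ones. The TMM factors of the WT libraries did not overlap either, with 1.1 to 1.968 at 12 h and 0.885 to 0.954 at 24 h. WT 12 h replicate 2 had 8815 genes with a count, against 12722 to 14471 in the other WT 12 h libraries. The part of the scaling in the agreement was not tested. Nor was the part of any handling that differed between the 12 h and 24 h libraries of both genotypes. In WT livers 138 genes were higher and 95 lower, in all 2.05% of those tested. Of the 287 genes called in KO livers, 281 had the same sign in WT livers, against 65.8% of all tested genes. In both, 95 genes were called, all with the same sign, which is 33.1% of the KO calls and 40.8% of the WT calls. The KO calls, chosen by their KO values, had a median absolute log2 fold change of 1.73 in KO and 1.21 in WT livers. Across the 11384 genes, which are not independent replicates, Pearson's r of the log2 fold changes was 0.40 and Spearman's rho 0.41. The test of the difference between KO and WT changes called 0 genes (0.0%) with edgeR, with 374 at an unadjusted p under 0.05 and a smallest adjusted p of 0.66. DESeq2 called 5. This does not show that the genotypes changed alike, since the common biological coefficient of variation was 0.743.

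Side by side, the mitosis list had a median of -2.93 in KO and -3.47 in WT livers, with 18 and 25 members lower. The ribosomal protein list had 0.83 and 0.64, with 34 and 4 members higher. CDK1 changed by -3.54 in KO and -5.71 in WT livers (adjusted p = 1.92e-06), and PER3 by 5.02 and 4.36 (adjusted p = 0.000792). prdx1 had -0.40 in WT livers (adjusted p = 0.827). MYC had 0.72 (adjusted p = 0.657). Neither difference from KO passed the test.

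**Figure D4:**
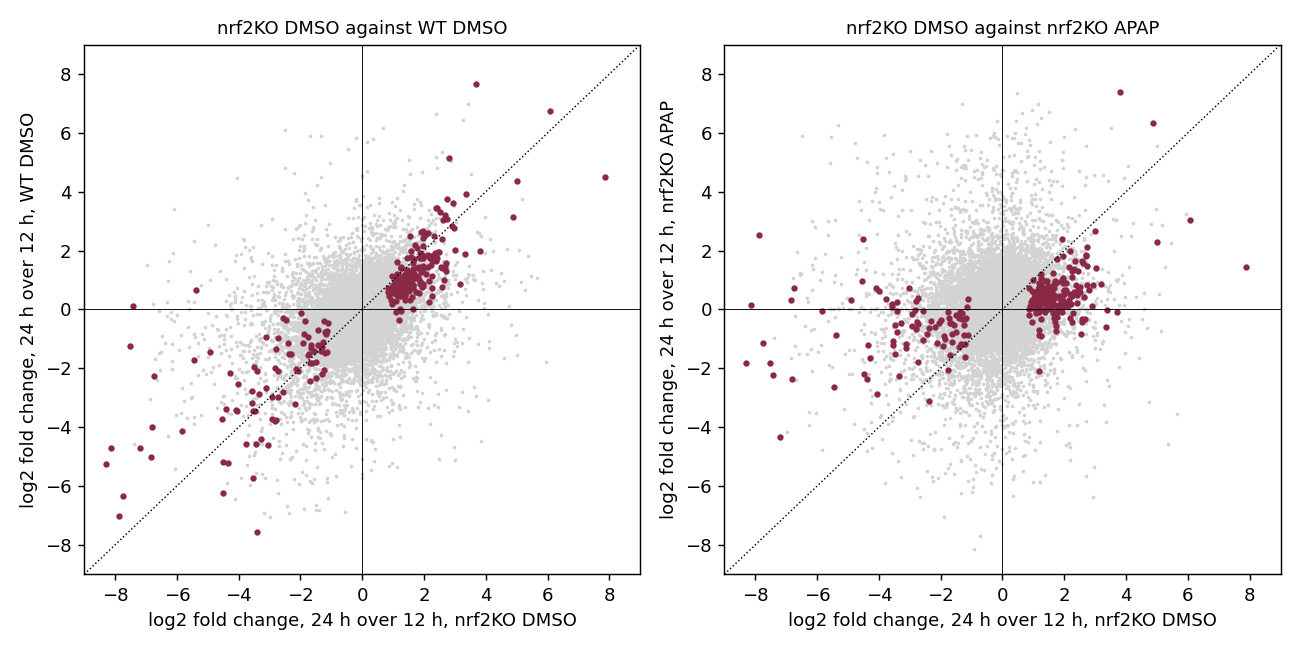
Log2 fold changes of 24 h over 12 h in KO DMSO livers (horizontal) against WT DMSO livers (left) and KO APAP livers (right) for all tested genes, with the 287 genes called in KO DMSO livers in dark red and equality as a dotted line. Of the called genes 281 have the same sign in WT DMSO livers, with a median size of 1.21 against 1.73 in KO DMSO livers, and 237 in KO APAP livers, with a median size of 0.54.

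In KO livers exposed to APAP the 12 h group holds a library that stands apart. Its replicate 2 had 4129 genes with a count, against 11340 to 12192 in the other 3. In these livers 9 genes were higher and 41 lower at 24 h, in all 0.439%. Of the 287 genes called under DMSO, 237 had the same sign under APAP, against 56.2% of all tested genes. In both, 7 genes were called, 6 of them with the same sign. Pearson's r across genes was 0.15. The called genes were chosen by their DMSO values, and their median absolute log2 fold change was 1.73 under DMSO and 0.54 under APAP. The test of the difference between the changes called 22 genes (0.193%), 5 with a higher and 17 with a lower change under APAP. The split turned to 12 higher and 9 lower with total counts alone and to 55 higher and 46 lower with DESeq2. Of the 22 genes 10 were also called under DMSO. Both tests use the KO DMSO libraries, so this overlap is no independent support. The count of 22 fell to 5 without DMSO 24 h replicate 4 and to 6 without APAP 24 h replicate 1. It was 9 without DMSO 12 h replicate 1 or 2 or DMSO 24 h replicate 3. Without APAP 24 h replicates 3 and 2 it was 10 and 12. It was 35 and 34 without APAP 12 h replicates 1 and 2.

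Of the mitosis list 1 of 67 genes differed, UBE2C. It was at 43.4 ± 7.98 CPM and 3.17 ± 0.406 CPM (SD, n = 4) at 12 h and 24 h under DMSO, and at 6.61 ± 5.18 and 8.51 ± 2.71 CPM under APAP. The difference of its changes was 4.12 ± 0.82 (adjusted p = 0.0165). Under APAP 12 h replicate 2 was at 0 CPM and the other 12 h libraries between 5.40 and 12.1 CPM, so the APAP groups overlap. Without that library the difference was 3.74 (adjusted p = 0.000431). KPNA2 (3.75 ± 0.77) and cdca3 (5.53 ± 1.26), which are in none of the lists, had higher changes under APAP too, with adjusted p of 0.0195 and 0.0436. The mean log2(CPM + 2) of the mitosis list was 3.27 ± 0.194 and 1.86 ± 0.131 under DMSO, and 2.36 ± 0.416 and 2.41 ± 0.16 under APAP. In APAP 12 h replicate 2 it was 1.74, and in the other APAP 12 h libraries 2.52 to 2.63.

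GADD45B and GADD45G differed in the other direction. GADD45B was at 4.50 ± 1.99 and 26.6 ± 4.54 CPM under DMSO and at 108 ± 44 and 60.6 ± 6.74 CPM under APAP. The difference of its changes was -3.38 ± 0.64 (adjusted p = 0.011), and that of GADD45G was -3.01 ± 0.64 (adjusted p = 0.0267). COMTD1 (-3.27 ± 0.47, adjusted p = 0.000144), the cytochrome oxidase gene cox7a1 (-3 ± 0.44, adjusted p = 0.000144), the complement gene c8b (-3.47 ± 0.65, adjusted p = 0.011) and the retinol binding protein RBP2 (ENSDARG00000093774, -3.06 ± 0.57, adjusted p = 0.011) also differed. All were higher in the mean at 24 h under DMSO and lower under APAP. NIPAL4 differed by 4.71 ± 1.06 (adjusted p = 0.04). Of the 12 genes of the difference that are reported, 10 passed without APAP 12 h replicate 2, where NIPAL4 (adjusted p = 0.056) and hbae3 (adjusted p = 0.0868) did not. There were 9 that passed with total counts alone, where GADD45B (adjusted p = 0.086), GADD45G (adjusted p = 0.104) and hbae3 (adjusted p = 0.176) did not.

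**Figure D5:**
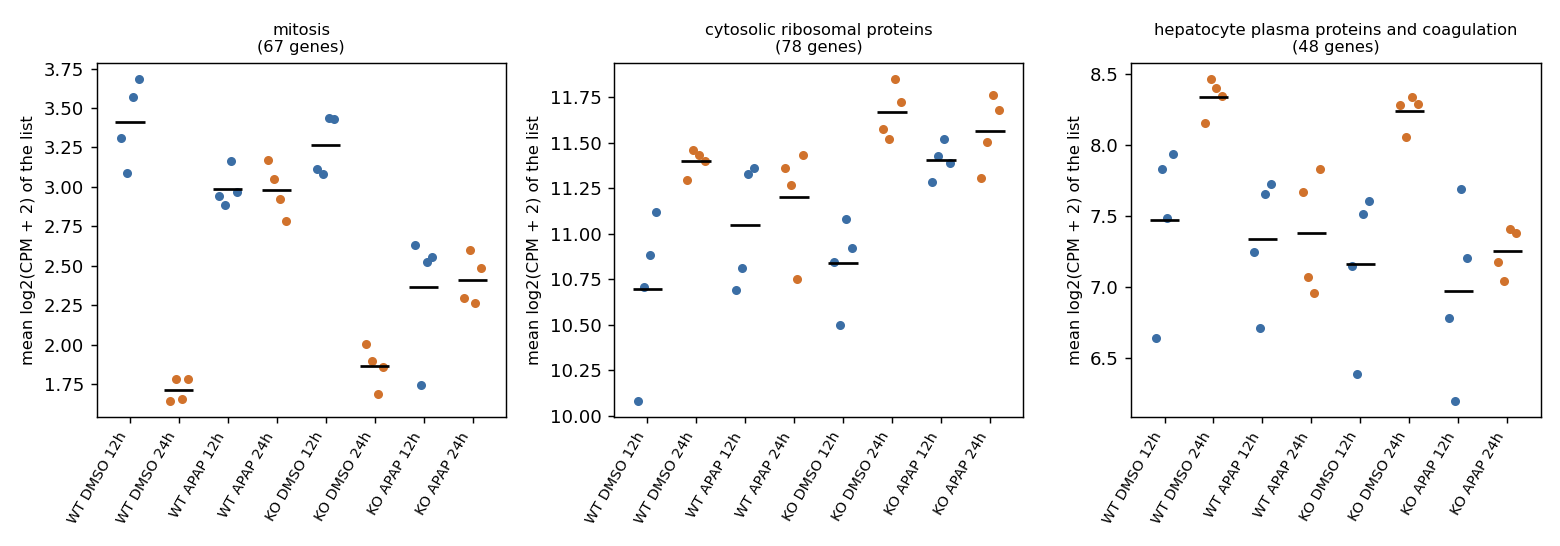
Mean log2(CPM + 2) of 3 gene lists in every library of the 8 groups, with 12 h in blue, 24 h in orange and group means as lines. The mitosis list is at 1.86 in KO DMSO and 1.72 in WT DMSO livers at 24 h, below the other 6 groups in the mean.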

How the data were processed

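RNA of zebrafish larval livers, 20 per library, was sequenced by the authors. The deposited table holds raw counts per Ensembl gene, made with bcl2fastq, Trim Galore, HISAT2 and HTSeq on GRCz11, per the submitters' processing notes. Versions, annotation release and strand setting are not given in the sources used here, so overlapping and antisense genes cannot be told apart. The table has 32519 genes, 29200 with a symbol. Symbols are from the supplied gene name table. Some are shared by both zebrafish copies, so the Ensembl ID is given. The counting program's lines without a gene were left out.

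Genes were filtered with filterByExpr over the 8 groups. Counts were scaled by TMM and fitted with 1 mean per group over all 32 libraries in edgeR 4.0.16 (R 4.3.3), with two-sided quasi-likelihood F-tests, 24 residual and 16.7 prior degrees of freedom. A Benjamini-Hochberg adjusted p below 0.05 made a call. Each SE is the size of the log2 fold change divided by the root of F. The script was tested on simulated data. Counting error alone enters the floors and intervals.

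The members, 33 pathway and 15 marker lists and all rules were chosen with earlier results of these data known, so their patterns are no independent support. Of 1885 listed symbols 1744 matched. For the main comparison the rule named the 12 highest and 12 lowest called genes with a proper symbol, groups that do not overlap and mean log2 CPM no lower than 3. Up to 4 members of each pathway list with 3 or more calls, 34 symbols whatever their values, and 6 and 6 genes per difference of changes were added. Genes outside this rule were picked after their values were seen, and some genes it names are not reported here. Alternatives were DESeq2 1.42.0, limma 3.58.1 (voom with quality weights), relative log expression, no filter, the compared groups alone, a replicate block, no pancreas genes in the library size, 3 libraries with few genes left out and each library left out. Scaling by total counts alone was added after seeing the data.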

Additional observations from a re-analysis of the deposited data

Results flagged for a closer look

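In groups of 4, a library was marked where Dixon's ratio exceeded its 95% critical value. For normally distributed values chance gives this in about 1 of 20 groups. The number of groups screened is not given here, so the marks below cannot be set against that rate. A library that holds the only counts of a gene always has a ratio of 1.0, so the rate does not apply there. At 12 h, replicate 3 stood high in exocrine pancreas markers, with 8.08% of counts against 1.86% to 2.74%, and in amy2a (762 CPM), ela2 (4530 CPM) and ela3l (2310 CPM). Replicate 2 stood high in ndufa4b (155 CPM) and in biliary markers (0.507% of counts), and low in cyp2ad2 (69.8 CPM) and SLC25A38 (1.67 CPM). It also held the only count of one PER1 gene (0.119 CPM). Replicate 4 was low in neural markers (0.0143%).

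At 24 h, replicate 3 stood high in PER2 (22.6 CPM), cry3b (2.18 CPM), eevs (152 CPM), kif11 (0.272 CPM, others at 0) and endocrine pancreas markers (0.0334%), and low in stellate and mesenchymal markers (0.0995%). Replicate 2 stood high in cdca8 (3.00 CPM), ndufa4b (20.0 CPM) and red blood cell markers (0.258%). Replicate 4 stood high in nfe2l2b (7.11 CPM) and BMAL1 (1.37 CPM, others at 0). Replicate 1 was low in icn (81.5 CPM) and high in c8b (204 CPM).

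The change over time in KO livers differed between APAP and DMSO by the test of the difference in UBE2C (4.12 on the log2 scale), KPNA2 (3.75), cdca3 (5.53), NIPAL4 (4.71), GADD45B (-3.38), GADD45G (-3.01), c8b (-3.47), COMTD1 (-3.27), RBP2 (-3.06), cox7a1 (-3), GAMT (-2.18) and the globin gene hbae3 (-2.40).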

How the results depend on the processing

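The 287 calls of the KO DMSO comparison became 517 with DESeq2, 1491 with limma voom, 798 with only the compared groups in the fit and 758 without the 3 libraries with fewest genes. Leaving out single libraries gave 125 to 268. The higher share of calls was 69.3%, and was 41.8% with DESeq2 (216 higher, 301 lower), 50.6% under relative log expression, 55.7% with limma voom, 54.6% with only the compared groups, 57.3% without the 3 libraries and 15.7% with total counts alone (62 higher, 334 lower). The count of the difference between KO and WT changes was 0, and 5 with DESeq2, 11 without a filter and 1 without the 3 libraries. That of the difference between APAP and DMSO changes was 22, and 101 with DESeq2, 121 with limma voom, 133 without a filter and 49 without the 3 libraries, with 5 to 35 over left-out libraries. Its higher share, 22.7%, was 54.5% with DESeq2, 57.1% with total counts alone and 3.7% with only the compared groups. The causes were not tested. Deviations of same-numbered 12 h and 24 h libraries had r of -0.0108, 0.0774, 0.0218 and 0.0246, so no pairing by number was detected. With 4 libraries per time a weak pairing could be missed. The replicate block gave 326 calls. Of 103 called genes followed through every setting, 49 passed without each KO DMSO library in turn. Of all 133 genes followed, 28 lost their call with total counts alone, 10 under relative log expression and 1 with DESeq2, and none of the called genes reversed in any setting run. At these depths, genes of a few CPM rest on few reads, as for both BMAL1 genes.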

Other observations

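The most abundant gene of the KO DMSO livers, ENSDARG00000080337, has no symbol in the table used. It took between 5.61% and 10.1% of counts at 12 h and between 3.49% and 5.71% at 24 h.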
